A study of Mus musculus with 3 samples.

Results

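The nuclear-encoded genes of the mitochondrial respiratory chain and ATP synthase are described here across 3 hippocampal RNA-seq libraries. Members were taken from the table of gene levels as protein-coding genes outside the mitochondrial chromosome whose symbol starts with Nduf, Uqcr, Atp5 or Cox followed by 4 to 8, or is Sdha, Sdhb, Sdhc or Sdhd. The rule found 94 of 54532 genes, and it used names and not levels. By complex there were 44 genes of complex I, 4 of complex II, 8 of complex III, 20 of complex IV and 18 of complex V. Of the complex I genes, 8 are assembly factors (the Ndufaf genes), which build the complex and are not part of it. Ndufa4 and Ndufa4l2 were placed with complex IV, where the Ndufa4 protein resides despite its name. Atp5s and Cox7a2l, which the rule also takes, are a coupling factor and a supercomplex factor.

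The libraries came from 10-month-old mice on a C57BL/6 background. Their genotypes were WT, PS19, which carries a mutant human tau transgene driven by the mouse prion protein promoter and develops tau pathology, and PS19 with heterozygous loss of Zbp1, labelled Zbp1+- and written PS19 Zbp1+/- here. Zbp1 encodes a sensor of Z-form nucleic acid. Each genotype had 1 library, and the labels do not say how many animals it held, so differences between genotypes could not be set against replicate spread and no p-value is given. Values given as a triple are in the order WT, PS19, PS19 Zbp1+/-.

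Oxidative phosphorylation passes electrons from NADH (complex I) or succinate (complex II) through complex III to oxygen at complex IV, and complexes I, III and IV pump protons across the inner mitochondrial membrane. Complex V, the ATP synthase, lets the protons flow back and makes ATP. Neurons depend on this pathway for the ion gradients of signalling. Complexes I, III, IV and V also contain subunits encoded by mitochondrial DNA, whereas complex II is wholly nuclear-encoded.

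Whole reads recovered from the table numbered 16746085, 16400328 and 17109734. Zbp1 itself had 5, 91 and 0 reads. Xist, the X inactivation transcript, had 11062, 13350 and 0 reads, and the Y-linked gene Ddx3y had 0, 0 and 711, so the PS19 Zbp1+/- library also differed from the others in sex-linked reads, and sex and genotype cannot be told apart. That library more often lacked weak signals: of 357 genes with 8 to 12 reads in both other libraries, 57 had no read in it, against 5 of 234 for WT and 1 of 244 for PS19. The 6 hippocampal neuron markers (Prox1, Neurod6, Wfs1, Spink8, Calb1 and Bok) had reads in each library.

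Promoters of respiratory chain genes are known for sites of NRF1 (nuclear respiratory factor 1), of ETS factors such as GABP, and of YY1. The start regions of 5 members are shown as examples of these motifs. For each complex, the gene printed is the one with the most matches to these motifs in the 120 bases before its start, taken as the start in RefSeq or in the table of levels, whichever lies further upstream. Ties went to the gene with more of the motifs in its 300-base window, then by name. Sequences are from RefSeq on GRCm38.p6, in the 5′ to 3′ direction of the gene. Capitals mark the matches. Ndufa11 (chr17:56717642-56717761, plus strand) is an accessory subunit of complex I, and Sdhd (chr9:50603850-50603969, minus strand) is a membrane anchor of complex II. Uqcr11 (chr10:80406831-80406950, minus strand) is a small subunit of complex III, Cox6a1 (chr5:115348982-115349101, minus strand) the widely expressed subunit 6a of complex IV, and Atp5h (chr11:115419963-115420082, minus strand) subunit d of the peripheral stalk of complex V.
Ndufa11: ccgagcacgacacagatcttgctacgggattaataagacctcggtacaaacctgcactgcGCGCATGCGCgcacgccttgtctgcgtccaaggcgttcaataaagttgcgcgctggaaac
Sdhd: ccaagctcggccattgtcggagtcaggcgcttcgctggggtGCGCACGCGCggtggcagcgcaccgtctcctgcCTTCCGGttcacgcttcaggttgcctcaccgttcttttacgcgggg
Uqcr11: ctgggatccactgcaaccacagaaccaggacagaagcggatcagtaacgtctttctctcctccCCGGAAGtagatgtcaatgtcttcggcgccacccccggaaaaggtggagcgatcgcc
Cox6a1: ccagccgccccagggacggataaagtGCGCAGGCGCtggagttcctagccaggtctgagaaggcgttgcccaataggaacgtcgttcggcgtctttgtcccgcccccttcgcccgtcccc
Atp5h: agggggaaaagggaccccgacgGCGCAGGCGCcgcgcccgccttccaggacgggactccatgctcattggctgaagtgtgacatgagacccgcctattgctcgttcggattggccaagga

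The motifs were searched on both strands in windows of 300 bases (250 before to 50 after the RefSeq start), which matched 74 of the 93 member symbols. The NRF1 motif, GCGCA followed by any 1 base and GCGC, lay in 18 of 74 member promoters (24.3%), against 6.89% of 16494 promoters and 12.7% of 1875 promoters of other genes at a mean FPKM of at least 20. The ETS motif CCGGAAG lay in 17 (23.0%), against 12.3% and 16.7%. A match may overlap one of another motif. The YY1 motif AAGATGGCG lay in 7 (9.46%), against 2.04% and 2.67%. Any of the 3 motifs was found in 36 of 74 members, or 48.6%, against 19.2% of all promoters and 29.1% of those of other genes at that level. A match describes letters only and shows no binding. Between PS19 and WT, the 18 members with the NRF1 motif had a median log2 difference of -0.47 and the 56 without it -0.41, with quartiles of -0.53 to -0.34 and -0.50 to -0.32, so the groups overlapped over most of their range. Members with the ETS motif had a median of -0.52 (quartiles -0.58 to -0.41) and those without it -0.40 (-0.49 to -0.32), and with and without the YY1 motif the medians were -0.46 and -0.41.

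Levels are in FPKM, fragments of a gene scaled to library size and to the gene length. The median member had an FPKM of 48.2, 34.8 and 41.1. Members held 179623, 138270 and 146913 reads in the same order, or 1.07%, 0.843% and 0.859% of the recovered reads. Complex IV took the largest share of the summed member FPKM, at 35.0%, 33.2% and 31.8%, followed by complex I with 29.9%, 29.8% and 29.7% and complex V with 21.2%, 22.3% and 23.8%. The order of the complexes by summed FPKM was therefore the same in the 3 libraries, with complex III at 10.1% and complex II at 3.79% in WT.

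By mean FPKM the most abundant member was Cox8a, a small structural subunit of complex IV, at 588, 390 and 373. Cox6a1 followed with 513, 357 and 413. Atp5a1, the alpha subunit of the ATP synthase head, led complex V at 297, 248 and 317. WT was highest for Cox8a and Cox6a1, while for Atp5a1 PS19 was lowest and the other libraries were close together. Sdha, the flavoprotein of complex II, had an FPKM of 97.6, 87.6 and 89.8. Uqcr10, a small subunit of complex III, had 106, 89.4 and 109, and Ndufa2, an accessory subunit, led complex I with 105, 78.8 and 85.2. At the low end Cox8c had no read in any library, and a second row named Atp5o (ENSMUSG00000116933), which overlaps the main Atp5o gene, had none either. Levels of members compare loosely, because the table's gene length joins all exons of a gene: Atp5l (subunit g) has a length of 6443 bases there but 544 in its longest coding transcript, and its FPKM of 11.4 in WT is lowered accordingly.

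**Figure D1:**
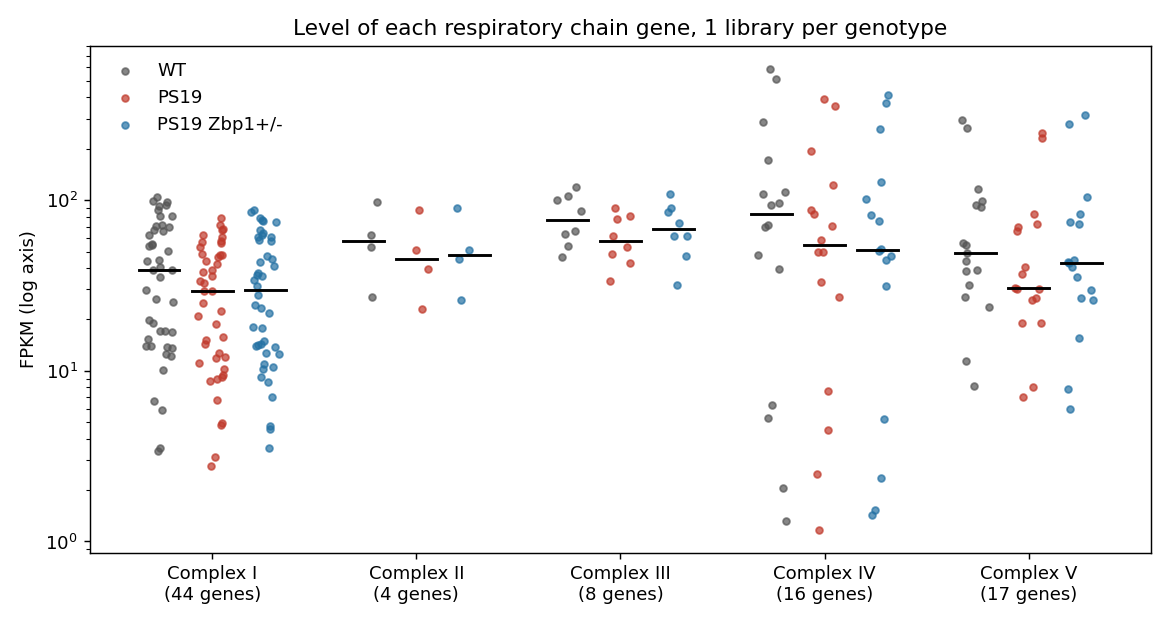
FPKM on a log axis of each member with an FPKM of at least 1 in all 3 libraries, by complex; points are genes, black bars are medians, and colours are the 3 libraries. In every complex the median in PS19 lies below that in WT.

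Nearly all members were lower in PS19 than in WT, with complex medians from -0.43 to -0.25. Differences are of log2(FPKM + 1), for protein-coding genes that reached 1 FPKM in one or both libraries compared, which took in 92 of the 94 members. Of these, 88 were lower in PS19, where 53.7% of all 12703 protein-coding genes tested were lower. The median difference was -0.41, that is 0.754-fold, with quartiles of -0.51 and -0.29, against a median of -0.03 over all genes. A member was counted as lower past the threshold at 20% or more below and as higher at 25% or more above, on the scale of FPKM + 1, which understates differences of weakly expressed genes. Past it, 64 members, or 69.6%, were lower, against 14.5% of all genes. A single member, Cox6a2, was higher past it, against 14.8% of all genes, and none reached 2-fold in either direction, against 0.291% lower and 2.2% higher. Against genes of like level and length, described after the complexes, 11 members, or 12%, were lower past the threshold, near the 8.90% of all genes under the same correction. Higher past it under that correction were 2.17% of members, against 13.9% of all genes.

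In 83 of the 92 members the exact (Clopper-Pearson) 95% interval of the PS19 to WT read ratio, scaled to library size, lay below 1, and in 1 it lay above, against 32.7% below and 28.3% above over all genes tested. Among 2434 other genes at a mean FPKM of at least 20, whose counts are high, 64.4% lay below 1. Such an interval covers counting error only and compares 2 libraries, not 2 genotypes.

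In complex I all 44 genes were lower in PS19 than in WT, with a median of -0.41 and a range from -0.60 (Ndufa1) to -0.13 (Ndufa10). The 7 core subunits, which carry the flavin and iron-sulfur clusters and bind NADH and quinone, had a median of -0.38, the 29 accessory subunits -0.41 and the 8 assembly factors -0.41. Ndufa1, a short X-linked accessory subunit of the membrane arm (GRCm38, chromosome X, 37187588 to 37191163), had FPKM values of 92.7, 60.6 and 35.7, stepping down across the 3 libraries. Its PS19 to WT read ratio was 0.654 (95% interval 0.578 to 0.739). Among the assembly factors, Ndufaf8 differed most, at -0.60, with 202, 129 and 145 reads. Among the core subunits the lowest difference was that of Ndufv2 (-0.51) and the smallest that of Ndufs1 (-0.24).

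Complex II had the smallest median. Its 4 genes had differences from -0.43 (Sdhb, the iron-sulfur subunit) to -0.15 (Sdha) and a median of -0.25, and 1 of 4 was lower past the threshold. Sdhb had FPKM values of 53.4, 39.5 and 50.7. The range of its 4 genes lies inside that of complex I, and against genes of like level and length its median was 0.01.

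Complex III had a median of -0.41 over 8 genes, all lower. The extremes were Uqcr11 at -0.55, with an FPKM of 119, 80.9 and 61.5, and Uqcrc2, a large core protein of the complex, at -0.15, with 54.0, 48.4 and 62.0. Uqcr11 thus stepped down across the libraries, whereas Uqcrc2 was lowest in PS19 and highest in PS19 Zbp1+/-. Uqcrh, the hinge protein near cytochrome c1, had 87.0, 62.0 and 89.9, a difference of -0.48.

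Complex IV held both the lowest member and the only ones above WT. Its 19 tested genes had a median of -0.43, with 15 lower and 4 higher. Cox7c, a small subunit (chromosome 13, 86044816 to 86046904), had FPKM values of 96.1, 58.8 and 50.7, and its difference of -0.70 was the lowest of all members, with a read ratio of 0.612 (0.568 to 0.659). Near-identical copies of Cox7c also held reads, and the gene itself had 94.4%, 89.4% and 94.9% of the family total. Its copy Gm12338 had 106, 133 and 44 reads. The rank of Cox7c as lowest is that of its own row, without copies added, and depends on how reads were split. Cox5a, a matrix-side subunit, had 39.4, 27.2 and 44.7 and a difference of -0.52. The 4 higher genes were the weakly expressed paralogs Cox6a2, Cox8b, Ndufa4l2 and Cox7a1. Cox6a2, the heart and muscle form of subunit 6a, had 62, 90 and 56 reads, a PS19 minus WT difference of 0.46 and a PS19 to WT read ratio of 1.45 (1.04 to 2.04). The intervals of the other three included 1.

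In complex V all 17 tested genes were lower, with a median of -0.43. The F1 head, where ATP is made, had a median of -0.33 over 5 genes, the c-ring, the rotor in the membrane, -0.32 over 3, and the stalk and remaining membrane genes -0.53 over 9. Atp5mpl, a small membrane subunit, had FPKM values of 48.8, 30.3 and 29.9, and a difference of -0.67. Atp5l followed at -0.63, with 1269, 781 and 793 reads, which were 71.8%, 69.7% and 67.2% of the reads of the gene and its near-identical copies. Atp5o, the OSCP protein that ties the stalk to the head, had 39.1, 26.8 and 42.8. Atp5s, a coupling factor rather than a lasting subunit, differed by -0.02, with 288 reads in WT and 284 in PS19.

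**Figure D2:**
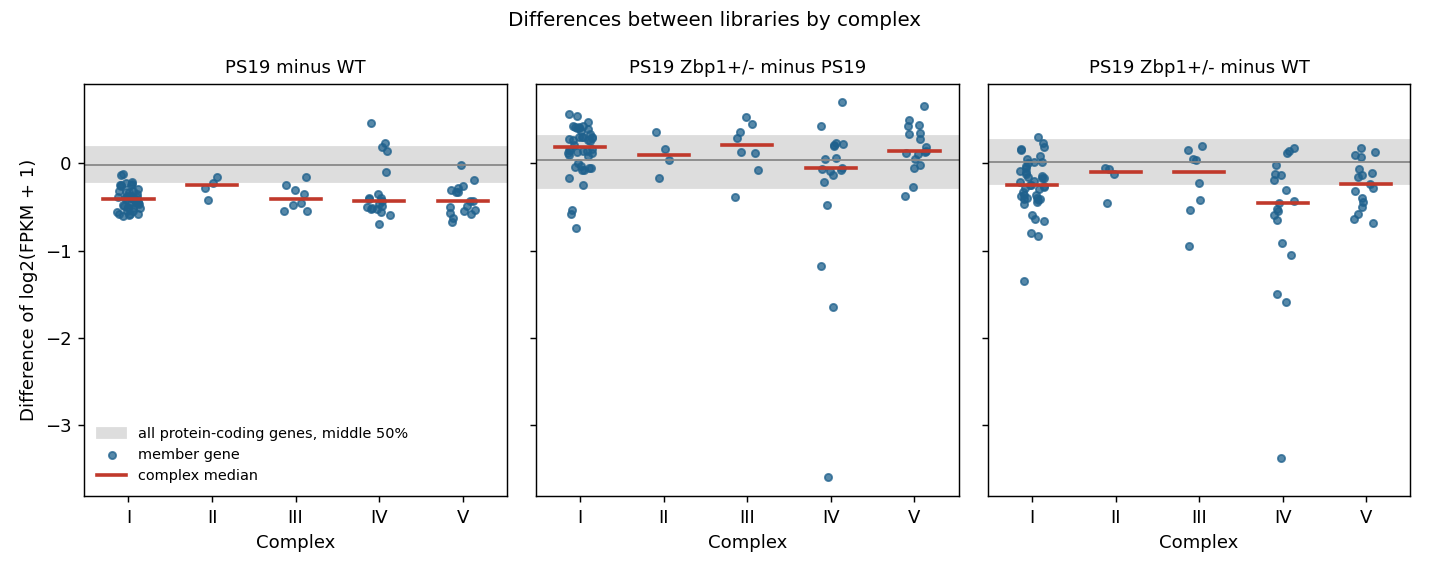
Difference of log2(FPKM + 1) for each tested member by complex in the 3 comparisons; red bars are complex medians, the grey band holds the middle 50% of all protein-coding genes and the grey line their median. In the left panel the 5 complex medians lie between -0.43 and -0.25, below the grey band.

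Length and level move with this difference. Among other protein-coding genes at a mean FPKM of at least 20, the median of PS19 minus WT was -0.42 for 47 genes shorter than 800 bases, -0.35 for 204 genes of 800 to 1500 bases, -0.27 for 704 genes of 1500 to 3000 bases and -0.11 for 1479 longer genes. Members as abundant had medians of -0.51 (11 genes), -0.46 (23), -0.43 (21) and -0.27 (10) in the same classes. Members were lower than those genes in each class. After subtracting the median of other genes of like level and length, the member median was -0.15 with 12% of members lower past the threshold, near the 8.90% of all genes. Higher past it were 2.17% of members, against 13.9% of all genes. After the same for GC content and length the median was -0.25, with 26 members, or 28.3%, lower past it, against 9.01% of all genes. In that setting 3.26% of members were higher past it, against 15.6% of all genes. The part of length, level and GC content in the result was not tested beyond these values.

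**Figure D3:**
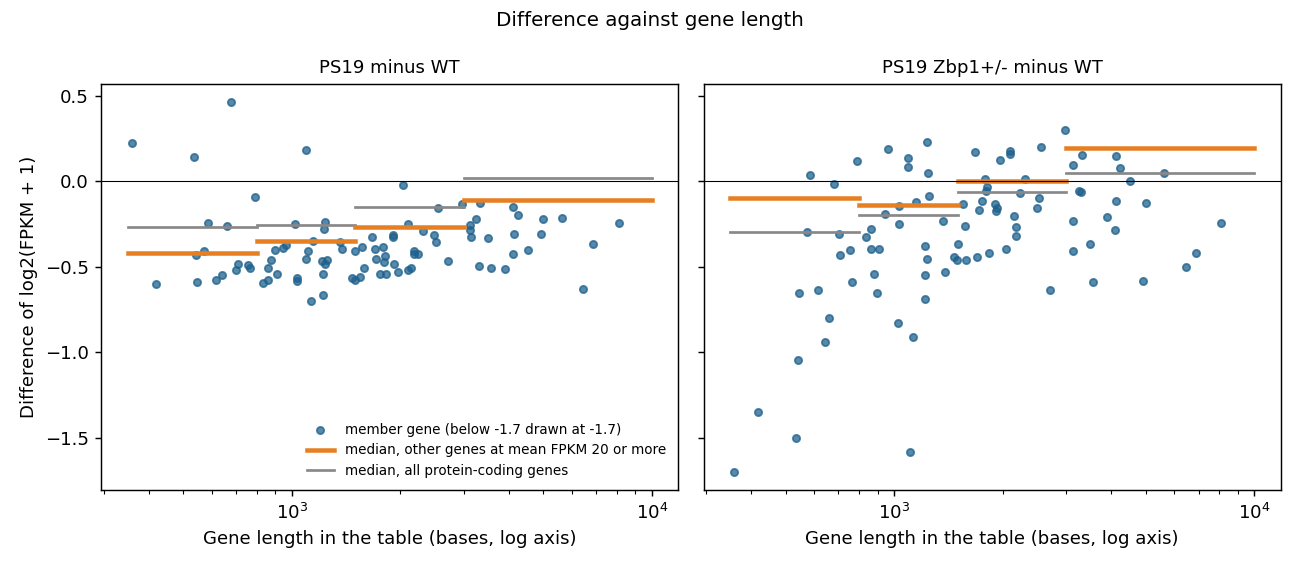
Difference of log2(FPKM + 1) against gene length (log axis) for members (points), with the median of other genes at a mean FPKM of at least 20 (orange) and of all protein-coding genes (grey) in 4 length classes; left PS19 minus WT, right PS19 Zbp1+/- minus WT. Cox8b is drawn at the edge of the right panel. In the left panel the orange medians run from -0.42 in the shortest class to -0.11 in the longest.

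Cell type markers also differed between the libraries. Summed FPKM of the 8 neuron markers was 1028, 859 and 1295, and that of the 6 hippocampal neuron markers 216, 159 and 159. The 5 astrocyte markers summed to 330, 1140 and 369, the 5 oligodendrocyte markers to 664, 1168 and 435, the 6 microglia markers to 93.9, 304 and 94.0, and the 3 endothelial markers to 28.7, 27.5 and 45.3. Some sums were carried by single genes. Gfap held 98.4, 768 and 112 of the astrocyte sums, and Slc17a7 206, 172 and 371 of the neuron sums. Among the hippocampal neuron markers Calb1 had 24.6, 11.6 and 27.3, while Bok had 53.3, 44.8 and 29.7 and Prox1 8.76, 9.51 and 5.20. C1qa held 48.0, 205 and 39.4 of the microglia sums, while P2ry12 had 11.2, 10.1 and 8.66. Cldn5 held 22.4, 19.1 and 38.1 of the endothelial sums, while Flt1 and Pecam1 were lower in PS19 Zbp1+/- than in PS19. No marker of these lists was at 0 reads in any library. By these sums the 3 glial lists were higher and both neuronal lists lower in PS19 than in WT. Gene by gene, 1 marker of each neuronal list was higher and 1 microglia marker lower. The part of these lists in the members' differences was not tested, and in bulk tissue fewer cells of a type and less RNA per cell cannot be told apart.

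Other genes of the pathway were read from lists that hold no member. For comparison, 53.7% of all 12703 genes tested were lower in PS19 than in WT, 14.5% were lower past the threshold and 14.8% higher past it. Among the 2434 other genes at a mean FPKM of at least 20, 74.4% were lower and 27.7% were lower past it. Counts in the lists below are to be read beside these shares. The 6 electron carriers and regulators (Cyc1, Cycs, Atpif1, Usmg5, Higd1a and Higd2a) were all lower in PS19 than in WT, 4 of them past the threshold, with a median of -0.41. Cyc1, cytochrome c1, is a subunit of complex III whose symbol the rule does not take, and had an FPKM of 78.0, 62.7 and 91.6. Usmg5, a small ATP synthase subunit also outside the rule, had an FPKM of 340, 194 and 216. Of 15 citrate cycle genes, 13 were lower, 3 of them past the threshold (Mdh2, Pdhb and Sucla2), and 1, Suclg2, was higher past it, with a median of -0.28. Of 27 tested assembly factors of complexes II to V, 21 were lower, 7 past the threshold and none higher past it, with a median of -0.11. The 11 regulators of mitochondrial biogenesis had a median of -0.01, with 5 higher and 6 lower. Among them Gabpb1, a subunit of the ETS factor GABP, was lower past the threshold, with an FPKM of 3.10, 2.06 and 1.83. Ppargc1a, the coactivator PGC-1alpha, had 630, 730 and 791 reads, and Nrf1 had 355, 402 and 301.

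The mitochondrially encoded partners are given only beside their complexes. Between PS19 and WT the 7 complex I genes of the mitochondrial genome had a median of -0.21 and ran from -0.46 to 0.36. The difference was -0.13 for mt-Cytb of complex III, and mt-Atp6 and mt-Atp8 of complex V ran from -0.51 to 0.68. The 3 complex IV genes had a median of -0.58, which was that of mt-Co3, with 950 reads in WT and 631 in PS19. By contrast mt-Co1, with 221532 and 204045 reads, differed by -0.12, and mt-Co2, with 2187 and 1274, by -0.78. Between PS19 Zbp1+/- and WT the mitochondrial medians of complexes I, III, IV and V were 0.46, 0.33, 0.07 and -0.39, and the nuclear medians of the same complexes were -0.25, -0.10, -0.46 and -0.23. The 3 mitochondrial complex IV genes ran from -0.57 to 0.57 in this comparison. In complex V both medians were negative. The complex V value rests on mt-Atp6 and on mt-Atp8, which had 13, 23 and 6 reads.

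Between PS19 Zbp1+/- and PS19 the members did not differ as 1 group. Of 91 tested members, 62 were higher and 29 lower in PS19 Zbp1+/-, against 53.7% higher and 46.3% lower of 12772 genes, and the median was 0.14 against 0.04. Past the threshold 24, or 26.4%, were higher, near the 24.2% of all genes, and 9, or 9.89%, were lower, against 22.7%. No member was 2-fold higher and 3 were 2-fold lower, against 2% and 5.16%. The direction of the median depends on the scaling. It was -0.14 in TPM, where all libraries have 1 common sum, and -0.04 after scaling by total reads, where all genes had medians of -0.25 and -0.12, and -0.06 against genes of like level and length.

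Complex I core subunits had a median of 0.29 over 7 genes, 6 of them higher, and the F1 head 0.33 over 5, all higher. These medians are near that of abundant genes in general. The 2434 other genes at a mean FPKM of at least 20 had a median of 0.27, with 23.9% lower. The 65 members as abundant had a median of 0.16. The 5 members furthest above PS19 were Cox5a (0.70), Atp5o (0.66), Ndufs8 (0.56), Ndufa11 (0.54) and Uqcrh (0.53). Ndufs8, a core iron-sulfur subunit, had an FPKM of 69.4, 53.2 and 79.1. For Ndufs8, Cox5a and Atp5o, PS19 was the low library and PS19 Zbp1+/- the high one. Cox5a had a PS19 Zbp1+/- to PS19 read ratio of 1.64 (1.51 to 1.78). Scaled by total reads this ratio would be lower, and the interval does not cover that choice. The comparisons of PS19 with WT and with PS19 Zbp1+/- share the PS19 library, so a low PS19 value enters both.

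Complex IV was the 1 complex with a negative median, -0.06 over 18 genes with 10 lower, which was 0.02 against genes of like GC content and length. The 10 lower genes include the weakly expressed paralogs Cox6a2, Cox6b2, Cox7a1, Cox8b and Ndufa4l2, so the sign of the complex IV median rests in part on them. The others of the 10 were Cox6c, Cox7b, Cox7c, Cox8a and Ndufa4, while Cox4i1, Cox5a, Cox5b, Cox6a1, Cox6b1, Cox7a2, Cox7a2l and the weak Cox4i2 were higher. The next lowest members outside its weak paralogs were in complex I: Ndufa1 at -0.75, and Ndufa3, an accessory subunit, at -0.58, with an FPKM of 50.4, 42.2 and 27.9. Differences also varied with GC content. Among members with a mean FPKM of at least 5, the median was -0.08 for 12 genes under 45% GC and 0.28 for 21 genes at 55% or more, and in other protein-coding genes -0.08 and 0.32. Its part in the result was not tested.

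The members furthest apart between these libraries were weakly expressed paralogs of complex IV subunits. Cox8b, a form of subunit 8 known from heart, muscle and brown fat (chromosome 7, 140898945 to 140900446), had 58, 69 and 0 reads. Set against a floor of 3 reads for the count of 0, PS19 was 21.1-fold and WT 17.7-fold above PS19 Zbp1+/-. That floor leaves out the counting error of the other library, and the exact 95% intervals of the read ratios reached up to 0.0600 against PS19 and 0.0716 against WT. Cox7a1, the heart and muscle form of subunit 7a, had 20, 23 and 1 reads, a PS19 Zbp1+/- to PS19 ratio of 0.0475 (0.00115 to 0.292). Cox6b2, known as a testis form of subunit 6b, had 120, 86 and 25 reads, a ratio of 0.318 (0.195 to 0.501). Cox7b2 had 10, 5 and 0 reads, and the interval of its ratio reached up to 0.486 against WT and 1.19 against PS19. Each of these 4 genes was lowest in PS19 Zbp1+/-, and the counts of Cox7b2 are in the range where that library often had no read. Cox4i2, the oxygen-responsive form of subunit 4, had 18, 16 and 19 reads, and Ndufa4l2 39, 47 and 41, with no difference detectable at this depth. Choroid plexus markers were low in the same library, with an FPKM of 3036, 1842 and 7.05 for Ttr. The summed FPKM of Ttr, Folr1, Clic6, Kcnj13, Kl and Aqp1 was 3120, 1907 and 10.5, with none of the 6 at 0 reads. Their part in the paralogs' difference was not tested.

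**Figure D4:**
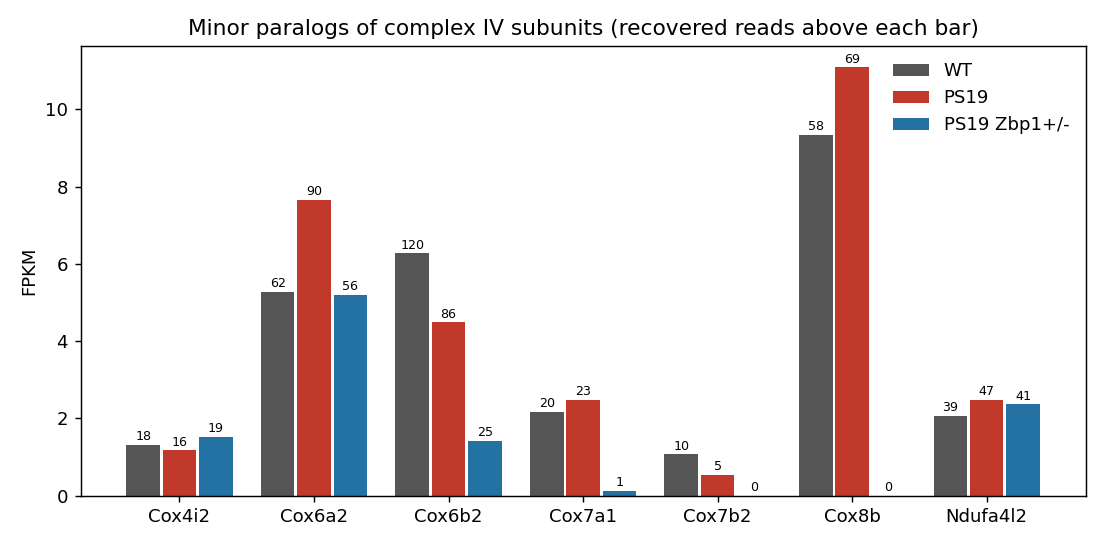
FPKM of 7 weakly expressed paralogs of complex IV subunits in the 3 libraries (bars), with the recovered reads printed above each bar. Cox8b goes from 58 and 69 reads to 0 in PS19 Zbp1+/-, while Cox4i2 and Ndufa4l2 stay within counting error.

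For subunits 4, 6a, 6b, 7b, 8 and Ndufa4 a single gene carried most of the signal. Cox8a made up 98.4%, 97.2% and 100% of the summed subunit 8 FPKM, and Cox6a1 made up 99.0%, 97.9% and 98.8% of subunit 6a. Subunit 7a was shared, with Cox7a2l, which links complexes III and IV in supercomplexes, at 53.8%, 54.3% and 55.6% and Cox7a2 at 45.1%, 44.1% and 44.4%. The c-ring of complex V is encoded by 3 genes whose mature protein is the same. Atp5g3 held 60.1%, 58.4% and 56.0% of their summed FPKM, Atp5g2 24.6%, 25.6% and 32.4%, and Atp5g1, whose reads near-identical copies may share, 15.3%, 16% and 11.7%. Between WT and PS19 the 3 shares differed little, while in PS19 Zbp1+/- the Atp5g2 share was higher and the Atp5g1 share lower.

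Between PS19 Zbp1+/- and WT the members were again mostly lower. Of 92 tested, 72 were lower, against 49% of 12436 genes, and 20 higher, against 51%, and the median was -0.25 against 0.01. Past the threshold 39, or 42.4%, were lower, against 18% of all genes, and none was higher, against 20.4%. Against genes of like GC content and length, 20 members, or 21.7%, were lower past it, near the 16.6% of all genes, and 4.35% higher, against 15.4%. Against genes of like level and length, 40.2% of members were lower past it, against 17.96% of all genes, and 3.26% higher, against 18.7%. Complex IV had the lowest median, -0.46 over 19 genes, then complex I at -0.25, complex V at -0.23, and complexes III and II at -0.10 each. The spread within complexes was wide: members from -0.94 (Uqcr11) to 0.20 (Uqcrc2) made up complex III. With 1 library each and overlapping ranges, the order of complexes is a description.

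At least 2-fold lower were 5 members, namely Cox8b, Cox6b2, Cox7a1, Ndufa1 and Cox7b2, against 2.28% of all genes, and none was 2-fold higher, against 1.07%. Ndufa1 had 670 reads in WT and 237 in PS19 Zbp1+/-, a ratio of 0.386 (0.331 to 0.448). The 3 X-linked members were all lower, at -0.40 (Ndufb11), -0.55 (Cox7b) and -1.35 (Ndufa1), while 413 other X-linked genes had a median of -0.04. The 5 highest were Ndufaf2 (0.30), Ndufaf6 (0.23), Uqcrc2 (0.20), Ndufs8 (0.19) and Cox5a (0.18), none of them past the threshold. Ndufaf2 and Ndufaf6 are assembly factors with 182 and 125 reads in WT and 216 and 138 in PS19 Zbp1+/-, and the interval of the Ndufaf6 ratio (0.938 to 1.55) included 1.

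Short members stood lowest in this comparison. The median was -0.61 over 16 members under 800 bases, -0.38 over 27 of 800 to 1500, -0.14 over 29 of 1500 to 3000 and -0.17 over 20 longer ones. Members at a mean FPKM of at least 20 had medians of -0.59, -0.39, -0.13 and -0.06 in the same classes, and other genes as abundant -0.10, -0.14, -0.0012 and 0.20. Across 85 members with a mean FPKM of at least 5, the difference and log2 gene length had a Pearson r of 0.41 (Spearman rho 0.36). Across 7627 other protein-coding genes at that level, r was 0.27 (rho 0.28). With the log2 length of the longest coding transcript, r was 0.35 in members and 0.32 in other genes. These points share 2 libraries and are not independent replicates. Core subunits of complex I and the F1 head had medians of -0.17 and -0.11, against -0.30 for the accessory subunits of complex I.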

How the data were processed

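Hippocampal RNA of 3 libraries, 1 per genotype, was analysed from 1 table of FPKM values that the authors deposited, with the position, length and biotype of each gene. Per the labels' protocols, RNA extraction used TRIzol and the libraries an NEB kit. The submitters' processing notes name Trim Galore 0.6.5, STAR 2.5.3a, featureCounts 2.0.4 and the build mm39, but gene positions in the table equal those of GENCODE M21 (GRCm38) for 98.3% of 54409 IDs matched and for 88 of 94 members, so positions are given as GRCm38. How strand and reads with several matches were treated is not given in the sources used here.

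FPKM times gene length was a whole multiple of 1 step, within 0.01 reads, for 100% of values, which gave whole reads. The library sizes these steps imply differ from the sums of reads. They were 1.73e+07, 1.73e+07 and 1.58e+07 for WT, PS19 and PS19 Zbp1+/-, and the last lies below its own sum of 17109734 reads. Read ratios of PS19 Zbp1+/- to the other libraries would be lower if scaled to the sums. Their intervals do not cover that choice. Differences are of log2(FPKM + 1), for protein-coding genes that reached 1 FPKM in one or both libraries compared, with thresholds of 20% lower, 25% higher and 2-fold. With 1 library per genotype no test was made. Read ratios are scaled to the implied library sizes, with exact 95% intervals. Reads carry no molecular identifiers, so intervals, and the floor of 3 reads per library for a count of 0, cover counting error only.

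Members and lists were chosen with earlier results of these data known. Named genes were, per comparison, the 5 members furthest up and down and any 2-fold difference, the most abundant member of each complex, up to 3 members with PS19 above or below both others, paralog groups, and members with near-identical copies; other genes were named after their values were seen. The motifs, the rule for printed promoters, the classes of length, level and GC content, and the criteria for copies (BLAST 2.17.0, 90% identity over 50% of the coding sequence, revised after first results) were also chosen after seeing the data. GC content was that of the longest coding transcript. Alternatives changed the pseudocount, filter, scaling, threshold and members. On data simulated for PS19 minus WT, reads were recovered for 100% of 54532 genes. There, 98% of 50 genes raised 1.5-fold passed the threshold, and so did 1.08% of 12206 unchanged genes. The raised genes were drawn only from genes with many reads, and the simulated counts varied by counting error alone. The 98% therefore does not describe members with few reads, such as the weakly expressed paralogs. How these shares change with spread between animals or libraries was not tested. Versions were Python 3.11.15, pandas 2.3.3, numpy 2.4.6, matplotlib 3.10.9 and scipy 1.17.1.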

Additional observations from a re-analysis of the deposited data

How the results depend on the processing

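Of 276 recomputed values, 207 kept their direction and stayed within counting error or, for counts, within 1.5 times, 55 moved and 14 changed sign. The cause was not tested. In PS19 minus WT, the median of all members was negative under each alternative. It was -0.25 against genes of like GC content and length, with complexes I, III, IV and V at -0.26, -0.28, -0.24 and -0.27, and 26 members lower and 3 higher past the threshold. Against genes of like level and length it was -0.15, with complexes I, III, IV and V at -0.17, -0.12, -0.15 and -0.19, complex II turned to 0.011, and 11 were lower and 2 higher. In TPM, 42 were lower and 3 higher, with complexes II and III at -0.13 and -0.29. At a threshold of 1.5-fold, 6 were lower and 0 higher. The share of all genes past 1.5-fold is not given here for any comparison. Member counts at that threshold therefore cannot be set against all genes. In PS19 Zbp1+/- minus PS19, TPM gave 2 higher and 26 lower and turned all members to -0.14 and complexes I, II, III and V to -0.086, -0.18, -0.079 and -0.13, with complex IV at -0.35. Total reads gave 5 higher and 14 lower, all members -0.037, complexes I and III 0.0084 and 0.018, and II, IV and V -0.084, -0.22 and -0.034. Level and length gave 7 higher and 21 lower, all members -0.064, complex I 0.016, and II, III, IV and V -0.20, -0.065, -0.28 and -0.11. GC content and length turned complex IV to 0.017, its mean over members was -0.30, and at 1.5-fold 2 were higher and 4 lower. In PS19 Zbp1+/- minus WT, TPM gave -0.41 for all members and for complex I, and -0.25, -0.25, -0.62 and -0.40 for II, III, IV and V. Total reads gave -0.40 for all members and for complex I, and -0.25, -0.25, -0.61 and -0.38 for II, III, IV and V. GC content and length gave -0.29 for complex IV with 20 members lower and 4 higher, level and length 3 higher, pseudocounts of 0.1 and 0.5 gave 1 higher each, a threshold of 1.5-fold 16 lower, and the mean of complex IV was -0.63. Over all genes, TPM moved the medians of the 3 comparisons to 0.11, -0.25 and -0.15, and 9.49% and 28.5% of genes were then lower and higher past the threshold in PS19 minus WT, 44.9% and 11.5% in PS19 Zbp1+/- minus PS19, and 34.2% and 14.5% in PS19 Zbp1+/- minus WT. In PS19 Zbp1+/- minus PS19, the shares of all genes lower and higher were 32.8% and 13.8% by total reads (members 15.4% and 5.49%), 22.7% and 19.98% by level and length (members 23.1% and 7.69%), and 23.8% and 18.3% by GC content and length (members 8.79% and 18.7%). In PS19 Zbp1+/- minus WT they were 28.7% and 11.9%, 17.96% and 18.7%, and 16.6% and 15.4% under the same 3 settings. Scaling by total reads and by bins was chosen after seeing the data, as was adding near-identical copies, which moved no value past these limits. No paired analysis was possible because each genotype had 1 library, and for the same reason no library could be left out.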

Other observations

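Values are in the order WT, PS19, PS19 Zbp1+/-. Near-identical copies were found for 35 of the 94 members, 85 copies in all outside the member list, most of them processed pseudogenes. In 11 families the copies held 100 reads or more over the 3 libraries. They include the second Atp5o row, which had no read itself. Its listed copy is Donson, a protein-coding gene of another name that matches it over 287 bases and had 367, 271 and 278 reads. Ndufa12, an accessory subunit of complex I, had 459, 346 and 347 reads, and its copy Gm15920 had 520, 462 and 390, so the row named Ndufa12 held 46.9%, 42.8% and 47.1% of the family. Atp5l held 71.8%, 69.7% and 67.2% of its family, Ndufab1, the mitochondrial acyl carrier protein, 73.9%, 77.1% and 76.3%, and Atp5g1 76.2%, 76.6% and 72.8%. Cox7c, whose share was 94.4%, 89.4% and 94.9%, was the 1 family in which the share moved by 5 percentage points or more. Reads of these families may be split between copies. With copies added to each member, the median of PS19 minus WT was -0.41, that of PS19 Zbp1+/- minus PS19 0.16 and that of PS19 Zbp1+/- minus WT -0.25. This setting also added the Donson reads to the second Atp5o row, so 93 members were tested in PS19 minus WT.

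A further 13 rows carry a symbol that the rule takes but are not annotated as protein-coding, 12 of them processed pseudogenes. The remaining one, Ndufb1-ps, is annotated as a long noncoding RNA and had 370, 257 and 124 reads. Ndufab1-ps had 147, 104 and 55. Both were highest in WT and lowest in PS19 Zbp1+/-.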
